A study of Zea mays with 24 samples.

Results

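The chromatin factors described here were 41 probe sets of 32 maize genes, out of 8346 maize probe sets tested on a pilot Affymetrix maize array. A probe set, a group of short oligonucleotide probes that together report 1 transcript sequence, was taken as a member when its platform symbol or another name in the reference gene table was 1 of 18 chromatin-gene prefixes followed by exactly 3 digits. Members were found for 12 of these prefixes, and the rule uses no measured value. All 32 genes were listed as protein coding in the gene table. Most carried a bare locus symbol in the platform annotation and matched through an older name. Methyl-CpG-binding domain proteins were not among the prefixes.

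The samples were leaf RNA of the inbreds B73, Mo17, W23 and Wf9, 4 lines in all. The labels give no treatment, mutation or transgene for any line, and each sample pooled the third, the fourth and the fifth leaves of several greenhouse plants. Growth, harvest and extraction were carried out 3 times per line, and each RNA went onto 2 arrays, giving 12 biological replicates on 24 arrays. The values are probe set signals on a linear scale, and the question asked of them was how far leaf transcript levels differ between lines.

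In the nucleus, DNA is wound around histones, and how tightly it is packed affects which genes can be read. Histone acetyltransferases add acetyl groups to histone tails and deacetylases remove them, linker histones bind the DNA that enters and leaves a nucleosome, DNA methyltransferases mark cytosines, and SET domain proteins as a class methylate histone lysines. Assembly factors escort histones and help to place them on DNA.

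Linker histone hon102, acetyltransferases hac106, hac108 and hag101, deacetylase hda113, DNA methyltransferase dmt106 and SET domain gene SDG123 differed among the lines. Read by 10 of the 41 probe sets (24.4%), these 7 of the 32 genes passed limma's moderated F-test of the 4 lines at a Benjamini-Hochberg adjusted p under 0.05, adjusted over all 8346 probe sets. Among all tested probe sets 2549, or 30.5%, passed the same test, so the members' share was below the background share. At an unadjusted p under 0.05 in the same F-test, 13 of the 41 members passed. The share of all tested probe sets at that threshold is not given here, and it cannot be below 30.5%. Among probe sets with a mean signal over 64, 6 of 21 members (28.6%) passed, against 1595 of 4179 tested probe sets (38.2%). The median range of the line means on the log2(signal + 16) scale was 0.45 for members and 0.46 for all tested probe sets, and the median SD between replicates of a line was 0.22 for members and 0.20 for all.

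**Figure D1:**
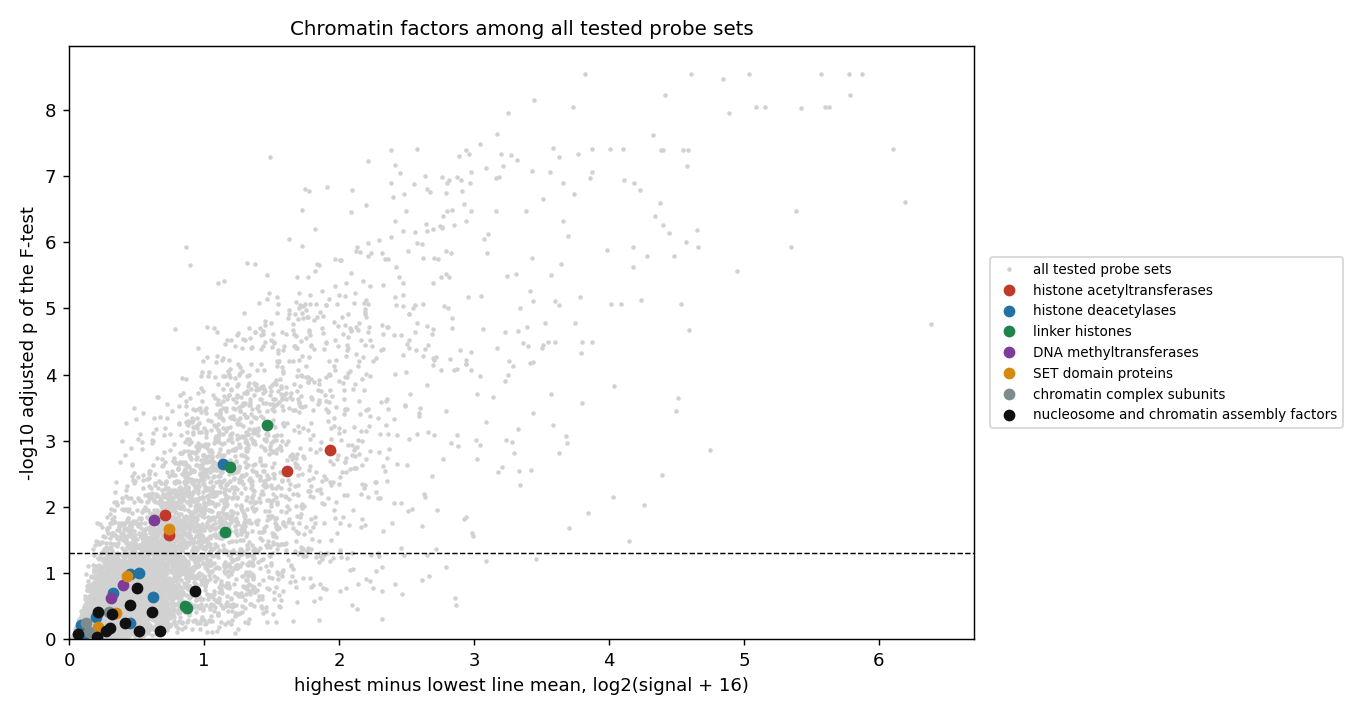
Each point is a probe set, with the range of the 4 line means on the log2(signal + 16) scale across and −log10 of the adjusted p of the F-test upwards. Coloured points are the 41 chromatin factors by class, grey points all tested probe sets, and the dashed line is an adjusted p of 0.05; all 4 acetyltransferase probe sets lie above it, and all 13 assembly factor probe sets below it.

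The classes differed in how many members passed. All 4 probe sets of the acetyltransferases passed, with a median range of line means of 1.18 on the log2(signal + 16) scale. Both probe sets of the single gene hac106 are among them, with ranges of 1.93 and 1.62, against 0.74 for hac108 and 0.71 for hag101. Of the linker histones 3 of 5 probe sets passed (median range 1.16), all 3 being probe sets of hon102. Single probe sets passed among 9 for deacetylases (0.45), 3 for DNA methyltransferases (0.40) and 4 for SET domain proteins (0.39). None of the 3 probe sets of the chromatin complex subunit cha101 (0.15) and none of the 13 probe sets of assembly factors (0.41) passed, and none of these 16 had an unadjusted p under 0.05 in limma's F-test. With limma's array weights, 1 of the 3 and 7 of the 13 passed, in a fit that called 65.0% of all tested probe sets. These class counts are descriptions, and the difference between classes was not tested.

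A background signal of 16.7 was taken from control probe sets for transcripts that were not spiked in. Of the members, 27 exceeded it on all 24 arrays, 8 on some arrays, and 6 on none; among all tested probe sets 1900 exceeded it on no array. Median signals per array lay between 47.4 and 64.1. The arrays of an RNA differed over the members with an SD of 0.122 to 0.229 on the log2(signal + 16) scale in 11 of the 12 RNAs, but with an SD of 0.808 in the third RNA of B73. The first array of that RNA also held all 213 exact zeros of the table, none of them in a member. For members past the F-test, calls that changed without that array are given both ways. W23 replicates 2 and 3 were closer to each other over the members (SD 0.141) than any other 2 replicates of a line. The others differed with an SD of 0.183 or more, with that array left out. The 0.141 lies inside the range of 0.122 to 0.229 between arrays of 1 RNA, though each replicate averages 2 arrays. How far these W23 replicates are independent was not tested. Leaf identity was read from 13 probe sets of photosynthesis genes, of which 12 exceeded background on all arrays. Limma's F-test called 0 of these 13, and 0 had an unadjusted p under 0.05. The summed signal of these 13 probe sets ran from 50468 to 97134 between replicates. Of 5 seed probe sets 4 were at background on all arrays, as was the 1 pollen probe set. The remaining seed probe set, of vpp1, exceeded background on all 24 arrays, with line means of 2499 to 2968. Both root probe sets passed the F-test. The zrp4 signal was 29.7, 75.9 and 20.4 in B73 and lay between 8.45 and 17.5 in the other lines, while tip2 read 183, 43.2 and 40.4 in W23 and lay between 7.15 and 27.6 in the other lines. Replicate 2 of B73 and replicate 1 of W23 thus carried much of these line means. The part of root-marker levels in the results was not tested. In whole leaf tissue, fewer cells of a type and less RNA per cell cannot be told apart. Whether the probes match the sequence of each line equally well was not tested.

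Among the acetyltransferases, hac106, which the gene table also lists as hat1, was low in Wf9. Its probe set Zm1.472.1.S1_at read 99.3, 117 and 43.6 in the 3 B73 replicates, 157, 117 and 84.9 in Mo17, 144, 112 and 127 in W23, and 21.8, 19.3 and 23.6 in Wf9. All 3 Wf9 replicates lay below all 9 replicates of the other lines, while those lines overlapped each other. Relative to Wf9, the log2(signal + 16) difference was 1.32 ± 0.31 in B73 (SE, n = 3 per line; adjusted p = 0.0125), 1.82 ± 0.31 in Mo17 (adjusted p = 0.0014) and 1.93 ± 0.31 in W23 (adjusted p = 0.000893). In ratios of geometric mean signals this was 3.71-fold for B73 over Wf9, 5.40-fold for Mo17 over Wf9 and 5.91-fold for W23 over Wf9. None of the 3 contrasts among B73, Mo17 and W23 passed (adjusted p from 0.212 to 0.901).

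The second hac106 probe set, Zm3.472.1.S1_at, gave the same order of lines. It read 56.0, 72.0 and 29.7 in B73, 96.8, 73 and 44.3 in Mo17, 87.1, 71.8 and 76.5 in W23, and 19.0, 13.2 and 12.3 in Wf9. Only 2 of the 6 Wf9 arrays exceeded background here, so the folds over Wf9 are understated. The log2(signal + 16) difference from Wf9 was 1.06 ± 0.28 in B73 (adjusted p = 0.0235, 2.82-fold), 1.46 ± 0.28 in Mo17 (adjusted p = 0.00314, 3.89-fold) and 1.62 ± 0.28 in W23 (adjusted p = 0.00156, 4.49-fold). These probe sets share a cluster number in their names and read the same annotated gene, so they are not counted as separate findings. Both differed between the arrays of the third B73 RNA, at 16.9 and 70.3 for the first probe set and at 11.9 and 47.4 for the second. Without the first of those arrays, the B73 minus Wf9 difference was 1.55 (adjusted p = 0.000369) and 1.26 (adjusted p = 0.00198). No other members met the rule for standing apart in 1 line, which asked that all 3 contrasts of a line pass, run the same way and reach 1 or more on the log2(signal + 16) scale. It was met by 2 of 41 members, against 6.46% of all tested probe sets, and only 1 of the 2 met it without B73 replicate 1, B73 replicate 2, Wf9 replicate 2 or Wf9 replicate 3.

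hag101, the maize GCN5 acetyltransferase, was high in B73. It read 63.5, 59.4 and 68.9 in B73, 29.7, 30.2 and 38.7 in Mo17, 46.3, 60.5 and 53.5 in W23, and 35.3, 30.1 and 46.4 in Wf9. The B73 replicates lay above all Mo17 and all Wf9 replicates, and W23 lay above Mo17 but met the range of B73 and of Wf9. The difference on the log2(signal + 16) scale was 0.71 ± 0.16 for B73 minus Mo17 (adjusted p = 0.0103, 1.95-fold) and 0.60 ± 0.16 for B73 minus Wf9 (adjusted p = 0.0268, 1.74-fold). The Mo17 minus W23 difference of −0.51 ± 0.16 did not pass (adjusted p = 0.0564).

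hac108, which the gene table also lists under the MYST-type name ham101, had a like order of lines. Its signal was 206, 215 and 151 in B73, 117, 127 and 80.5 in Mo17, 225, 153 and 174 in W23, and 117, 132 and 90.4 in Wf9. Every B73 and W23 replicate lay above every Mo17 and Wf9 replicate. The F-test passed with an adjusted p of 0.0266, the largest among the 10 members that passed. Of the pair contrasts, B73 minus Mo17 passed at 0.74 ± 0.22 on the log2(signal + 16) scale (adjusted p = 0.0394, 1.78-fold). B73 minus Wf9 at 0.68 (adjusted p = 0.057), Mo17 minus W23 at −0.70 (adjusted p = 0.0535) and W23 minus Wf9 at 0.63 (adjusted p = 0.0728) did not. Without the first array of the third B73 RNA all 3 passed, with adjusted p of 0.0273, 0.0342 and 0.0496. The F-test of hac108 did not pass without B73 replicate 1 (adjusted p = 0.0605), B73 replicate 2 (0.0519), W23 replicate 3 (0.0545) or Wf9 replicate 1 (0.0523).

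**Figure D2:**
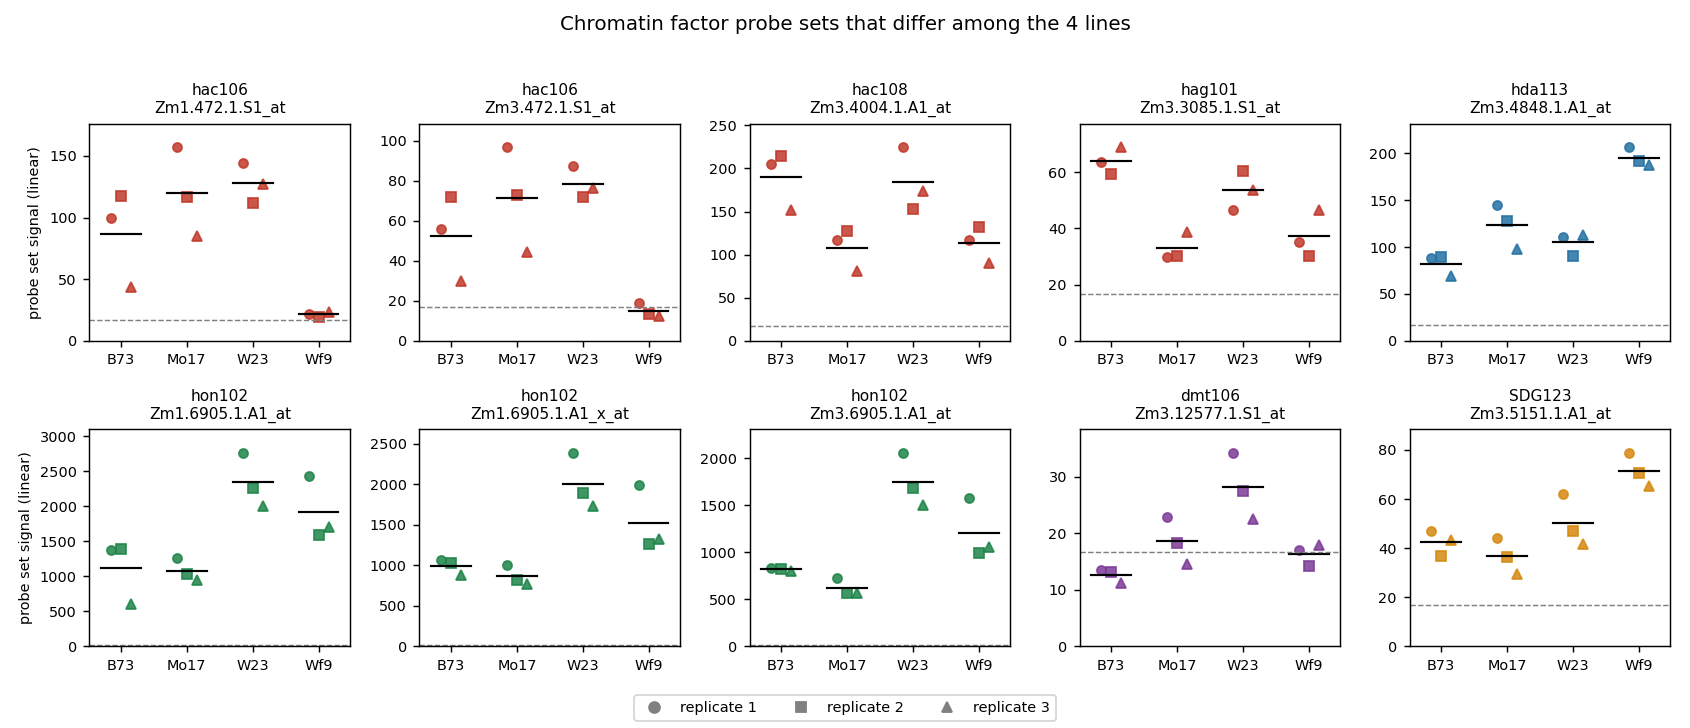
Probe set signal on a linear scale for the 10 probe sets that passed the F-test, by line, with 1 point per biological replicate (mean of 2 arrays), a bar at the line mean and a dashed line at the background signal of 16.7. Both hac106 panels show Wf9 near background, and the hda113 panel shows all 3 Wf9 replicates above every other replicate.

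Of the deacetylases, hda113 was high in Wf9. It read 88.2, 89.9 and 69.4 in B73, 145, 128 and 98.1 in Mo17, 111, 90.5 and 113 in W23, and 207, 191 and 188 in Wf9. No Wf9 replicate overlapped another line. The log2(signal + 16) difference from Wf9 was −1.14 ± 0.18 in B73 (adjusted p = 0.000924), −0.61 ± 0.18 in Mo17 (adjusted p = 0.0348) and −0.81 ± 0.18 in W23 (adjusted p = 0.00784). The signal was 0.420 of that in Wf9 in B73, 0.625 in Mo17 and 0.535 in W23, as ratios of geometric means. B73 minus Mo17, at −0.53 ± 0.18, did not pass (adjusted p = 0.0687). The arrays of the third B73 RNA read 40.9 and 97.8, and B73 minus Wf9 had an adjusted p of 0.000992 without the first of them. B73 lay below every Mo17 replicate either way, but below every W23 replicate only with that array kept.

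The remaining deacetylases did not pass. hda101, of the RPD3 type, had the smallest adjusted p of the members that did not pass (0.0995). It read 462, 480 and 590 in B73, 512, 617 and 694 in Mo17, 515, 695 and 664 in W23, and 391, 438 and 460 in Wf9. Wf9 lay below every Mo17, every W23 and every B73 replicate, the last by a narrow margin. The adjusted p of hda101 was 0.0466 with quantile normalization between arrays and 0.00988 with the RNA as a random block. Those fits called 32.0% and 38.4% of all tested probe sets, against 30.5% in the main fit. hda102 averaged 53.4 ± 6.26 in B73, 35.1 ± 4.67 in Mo17, 48.9 ± 4.51 in W23 leaves and 42.2 ± 3.65 in Wf9 (SD, n = 3 each; adjusted p = 0.102), and passed in a fit without the mean-variance trend (adjusted p = 0.0306). hda110 had the largest adjusted p of all members (0.958), with line means between 62.0 and 68.2.

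HDA108 had 1 probe set above background and 1 below it. Zm3.419.1.S1_at averaged 98.9 ± 11.5 in B73, 126 ± 5.20 in Mo17, 123 ± 1.70 in W23 leaves and 127 ± 3.81 in Wf9 (SD, n = 3 each). All 3 B73 replicates were below every replicate of the other lines, but the F-test did not pass (adjusted p = 0.201). It too passed without the mean-variance trend (adjusted p = 0.0411). Zm3.419.1.A1_at averaged 1.38 to 2.57 per line and was at background on all arrays, as was hda106, at 5.52 to 8.63.

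Of the plant-specific HD2-type deacetylases, hdt103 had the smaller adjusted p (0.230). It read 101, 67.8 and 77.3 in B73, 107, 78.1 and 116 in Mo17, 79.1, 95.5 and 86.5 in W23, and 134, 87.2 and 198 in Wf9. All 6 pairs of lines overlapped, and the third Wf9 replicate was the highest of the 12. Without Wf9 replicate 2 the adjusted p was 0.0483. hdt102 averaged 175 in B73, 203 in Mo17, 143 in W23 leaves and 182 in Wf9 (adjusted p = 0.565), and its arrays of the third B73 RNA read 53.6 and 281.

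Linker histone hon102 had higher signal in W23 than in B73 and Mo17 on all 3 of its probe sets. Zm3.6905.1.A1_at had the smallest adjusted p of any member in the main F-test (0.000584). It read 834, 827 and 806 in B73 and 732, 571 and 568 in Mo17. The replicates read 2062, 1686 and 1502 in W23, and 1578, 990 and 1061 in Wf9. B73 and Mo17 lay below all W23 and Wf9 replicates, and W23 and Wf9 overlapped. Mo17 lay below B73 only with all arrays: the third B73 RNA read 1115 and 497 on its arrays, and 497 is below all Mo17 replicates. On the log2(signal + 16) scale B73 minus W23 was −1.10 ± 0.20 (adjusted p = 0.00241), Mo17 minus W23 −1.47 ± 0.20 (adjusted p = 0.00026) and Mo17 minus Wf9 −0.92 ± 0.20 (adjusted p = 0.00694). The signal was 0.474 of that in W23 in B73 and 0.357 in Mo17, and Mo17 had 0.523 of the signal in Wf9. B73 minus Wf9 (−0.55, adjusted p = 0.0859) and W23 minus Wf9 (0.55, adjusted p = 0.0908) did not pass. Without the first array of the third B73 RNA, the F-test of this probe set had an adjusted p of 0.00143. Both hac106 probe sets had smaller values in that fit, 7.26e-05 and 0.000413.

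The second hon102 probe set, Zm1.6905.1.A1_x_at, carries a suffix that marks probes shared with other sequences. It averaged 995 ± 98.4 in B73, 869 ± 126 in Mo17, 2007 ± 344 in W23 leaves and 1529 ± 402 in Wf9 (SD, n = 3 each). The arrays of the third B73 RNA read 1138 and 628 here. B73 minus W23 was −1.01 ± 0.21 (adjusted p = 0.00513), Mo17 minus W23 −1.19 ± 0.21 (adjusted p = 0.00174) and Mo17 minus Wf9 −0.78 ± 0.21 (adjusted p = 0.0213). The third probe set, Zm1.6905.1.A1_at, averaged 1127 ± 445 in B73, 1082 ± 162 in Mo17, 2348 ± 385 in W23 leaves and 1913 ± 461 in Wf9. B73 minus W23 (−1.16 ± 0.31, adjusted p = 0.0239) and Mo17 minus W23 (−1.10 ± 0.31, adjusted p = 0.0327) passed. Mo17 minus Wf9 (−0.80 ± 0.31) did not pass (adjusted p = 0.116), but passed without the first array of the third B73 RNA (adjusted p = 0.0353). Its wider spread in B73 came with a replicate 3 of 613 beside 1383 and 1384, the 613 averaging arrays at 397 and 829. Its F-test (adjusted p = 0.0238) did not pass without Mo17 replicate 2 (0.0508), W23 replicate 1 (0.0661) or W23 replicate 2 (0.0581), or with W23 RNAs 2 and 3 averaged (0.0501). The names of the 3 probe sets share a cluster number, so they are counted as 1 gene and not as 3 findings. Between the arrays of the third B73 RNA they did not move together, since the first array read lower than the second on Zm1.6905.1.A1_at and higher on the others.

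The other linker histone, hon101, varied more between replicates than between lines. Its probe set Zm1.12583.1.A1_at read 570, 575 and 1274 in B73, 768, 1115 and 376 in Mo17, 765, 518 and 507 in W23, and 1352, 1414 and 671 in Wf9 (adjusted p = 0.343). All 6 pairs of lines overlapped. In Mo17 and Wf9 replicate 3 was the lowest, whereas in B73 it was the highest. That B73 value averaged arrays at 1995 and 552, and with the second array alone it would be the lowest there too, with B73 below every Wf9 replicate. Zm3.12583.1.A1_at followed it, with line means of 800 in B73, 752 in Mo17, 603 in W23 leaves and 1139 in Wf9 (adjusted p = 0.320).

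**Figure D3:**
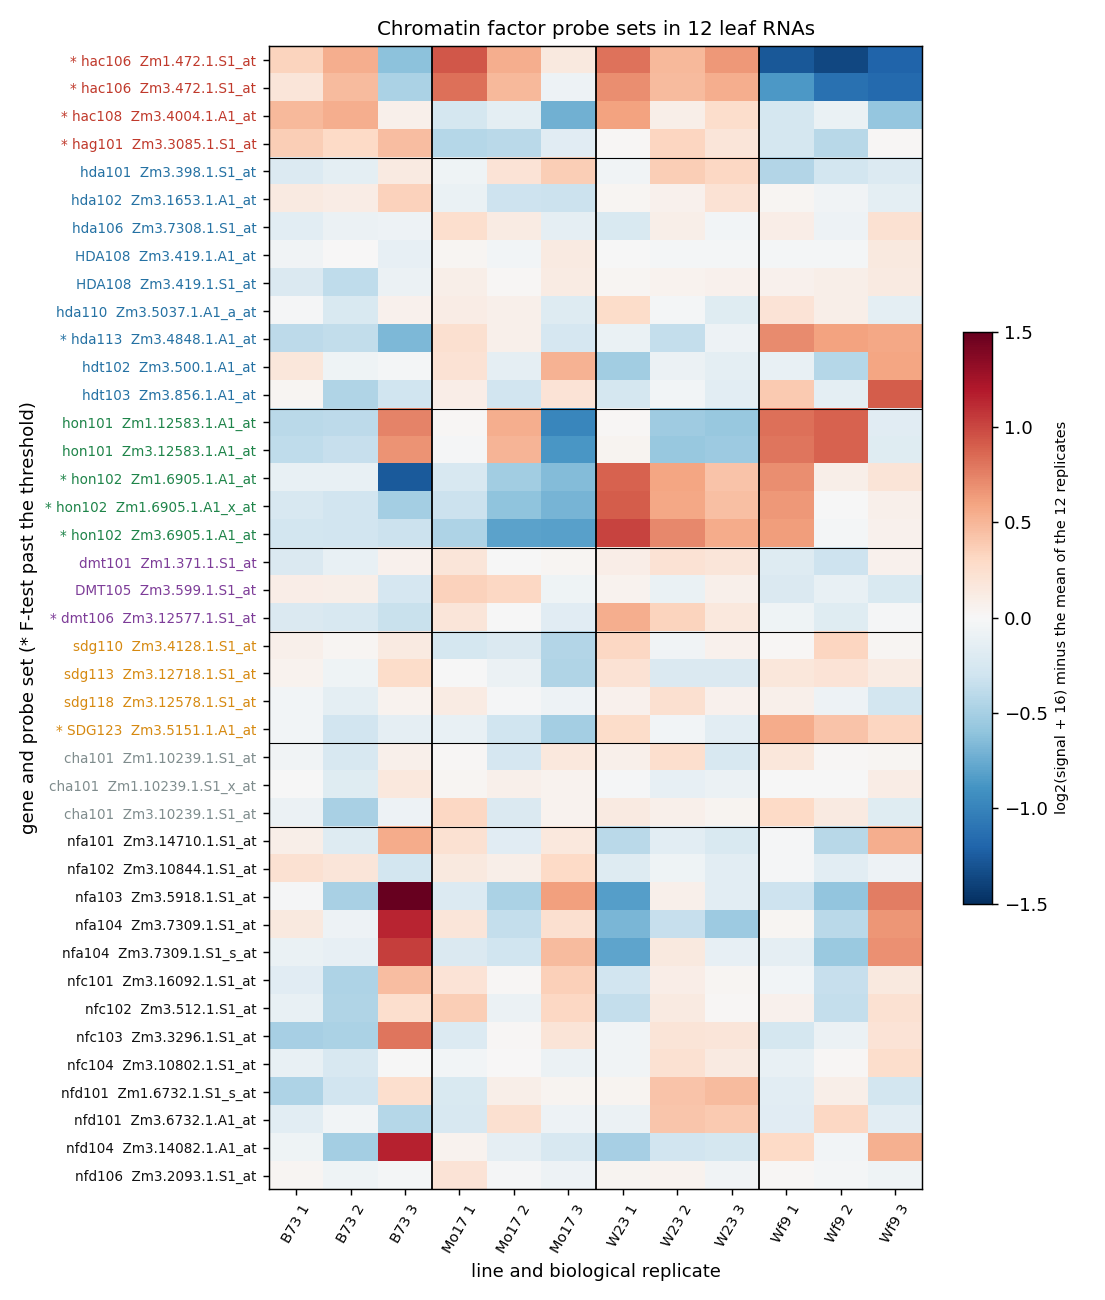
Rows are the 41 probe sets grouped by class (label colour), columns the 12 biological replicates, and colour is log2(signal + 16) minus the mean of the 12 replicates, with the scale ending at 1.5 in either direction. An asterisk marks the 10 probe sets that passed the F-test; the hac106 probe sets are low in all Wf9 columns, and several assembly factors are high in the third column of B73, Mo17 and Wf9.

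The DNA methyltransferases were dim in leaf. dmt106 read 13.5, 13.2 and 11.3 in B73, 22.9, 18.2 and 14.6 in Mo17, 34.2, 27.5 and 22.5 in W23, and 17.0, 14.3 and 18.0 in Wf9. Arrays above background numbered 1 of 6 in B73, 4 of 6 in Mo17, 6 of 6 in W23 and 4 of 6 in Wf9. W23 lay above all replicates of B73 and Wf9, and W23 met the range of Mo17. B73 minus W23 was −0.63 ± 0.13 on the log2(signal + 16) scale (adjusted p = 0.00578), with W23 at a ratio of 1.66 over B73 once B73 was set to the background floor. The third B73 value averaged arrays at 4.4 and 18.1. Without the first of these that B73 replicate was above background and B73 overlapped Mo17 and Wf9. B73 minus W23 was then −0.50 (adjusted p = 0.0192) and the ratio of W23 over B73 was 1.61, understated since the other B73 replicates stayed below background. W23 minus Wf9 was 0.44 ± 0.13 (adjusted p = 0.0397), likewise a ratio of 1.61 that is understated since 1 of the 3 Wf9 replicates was below background. The F-test of dmt106 (adjusted p = 0.0156) did not pass without W23 replicate 1 (0.0572) or W23 replicate 2 (0.0508).

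dmt101, the maintenance methyltransferase also named met1, averaged 19.9 ± 3.60 in B73, 24 ± 2.94 in Mo17, 26.6 ± 1.86 in W23 leaves and 18.6 ± 4.71 in Wf9 (SD, n = 3 each; adjusted p = 0.242). It exceeded background on 19 of the 24 arrays. DMT105, listed as Zmet5, exceeded background on 2 arrays, both of Mo17. Its line means were 9.73 in B73, 14 in Mo17, 10.2 in W23 leaves and 6.82 in Wf9 (adjusted p = 0.149). Without Mo17 replicate 3 the adjusted p of DMT105 was 0.0362, on signals that are nearly all below background.

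Of the SET domain genes, SDG123 was high in Wf9. It read 47.1, 37.0 and 43.2 in B73, 44.1, 36.4 and 29.4 in Mo17, 62.0, 47.1 and 41.8 in W23, and 79.0, 70.8 and 65.2 in Wf9. All 3 Wf9 replicates lay above the 9 others. B73 minus Wf9 was −0.59 ± 0.17 on the log2(signal + 16) scale (adjusted p = 0.0352; 0.591 of the Wf9 signal) and Mo17 minus Wf9 −0.74 ± 0.17 (adjusted p = 0.00972; 0.506 of the Wf9 signal). W23 minus Wf9, at −0.41 ± 0.17, did not pass (adjusted p = 0.137). Without the first array of the third B73 RNA, B73 minus Wf9 did not pass either (adjusted p = 0.0516). The F-test of SDG123 (adjusted p = 0.0217) did not pass without Mo17 replicate 2 (0.0516), Wf9 replicate 1 (0.0949) or Wf9 replicate 2 (0.0559).

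The other SET domain genes did not pass. sdg110 averaged 43.0 ± 2.26 in B73, 29.1 ± 3.60 in Mo17, 44.2 ± 7.78 in W23 leaves and 44.8 ± 7.56 in Wf9 (SD, n = 3 each; adjusted p = 0.110), with all 3 Mo17 replicates below the 9 others. It passed with the RNA as a random block (adjusted p = 0.0471), in a fit that called 38.4% of all tested probe sets. sdg113 had line means of 64.6 to 85.7 (adjusted p = 0.407) and sdg118 of 57.8 to 69.2 (adjusted p = 0.646).

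The chromatin complex subunit cha101 was near or below background in all lines. Zm3.10239.1.S1_at, its probe set of smallest adjusted p (0.389), read 7.20, 1.60 and 7.5 in B73, 14.6, 5.30 and 9.55 in Mo17, 11.1, 10 and 9.45 in W23, and 14.4, 11 and 5.70 in Wf9. It exceeded background on 1 array, of Mo17. The other probe sets of cha101 exceeded it on none, with line means of 2.27 to 5.57. No fold is given for levels on which both sides are below background.

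The nucleosome assembly factors of the nfa prefix, proteins of the NAP1 type that carry histones, did not pass the F-test, and several varied widely between replicates. nfa104 had the smallest adjusted p of the prefix, 0.185, on Zm3.7309.1.S1_at. It read 44.9, 36.2 and 106 in B73, 46.1, 27.0 and 48.9 in Mo17, 18.1, 27.3 and 21.6 in W23, and 39.9, 25.5 and 70.7 in Wf9. All B73 replicates lay above all W23 replicates, and the other pairs of lines overlapped. With the RNA as a random block the adjusted p was 0.0283, in a fit that called 38.4% of all tested probe sets. Its second probe set, Zm3.7309.1.S1_s_at, read 79.4, 77.6 and 194 in B73, 71.8, 67.2 and 126 in Mo17, 43.2, 97.6 and 77.8 in W23, and 77.4, 53.7 and 148 in Wf9 (adjusted p = 0.743).

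nfa103 had an SD of 0.75 between replicates of a line on the log2(signal + 16) scale, the largest of the 41 members. It read 63.5, 41.6 and 228 in B73, 53.8, 42.0 and 107 in Mo17, 29.3, 68.7 and 56.1 in W23, and 48.8, 37.4 and 121 in Wf9 (adjusted p = 0.748). Replicate 3 was the highest in B73, Mo17 and Wf9, and replicate 2 in W23. The arrays of the third B73 RNA both read high here, at 235 and 221. nfa101 averaged 49.1 to 72.6 per line (adjusted p = 0.560) and nfa102 140 to 179 (adjusted p = 0.417).

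The nfc genes encode WD40-repeat proteins of the MSI1 and RbAp type, which are subunits of several histone-binding complexes. None passed. nfc101 averaged 81.2 to 101 per line (adjusted p = 0.739), nfc102 188 to 234 (adjusted p = 0.675) and nfc103 292 to 325 (adjusted p = 0.925). For nfc103 the B73 mean rested on replicate 3, at 535 beside 207 and 212, whose arrays read 761 and 308. nfc104, whose adjusted p of 0.383 was the smallest of the prefix, was below background on all arrays. It read 6.85, 4.80 and 8.55 in B73, 7.90, 8.65 and 7.05 in Mo17, 7.70, 12.7 and 10.9 in W23, and 6.80, 8.90 and 13.6 in Wf9.

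The nfd genes encode proteins with an HMG box, a DNA-bending domain. nfd101 had the smallest adjusted p of the prefix (0.167) on Zm1.6732.1.S1_s_at, whose suffix marks shared probes. It read 8.40, 11.6 and 24 in B73, 12.7, 19.6 and 18.5 in Mo17, 18.4, 29.3 and 30.6 in W23, and 14, 19.5 and 11.8 in Wf9. The high B73 value averaged arrays at 36.6 and 11.3. Without the first of these the F-test of this probe set passed (adjusted p = 0.0222), as it did without B73 replicate 3 (adjusted p = 0.0369). The second nfd101 probe set, Zm3.6732.1.A1_at, had line means of 10.7 in B73, 14.5 in Mo17, 20.7 in W23 leaves and 14.8 in Wf9 (adjusted p = 0.308). nfd104, also named hmg2, averaged 368 ± 241 in B73, 260 ± 28.9 in Mo17, 217 ± 20.7 in W23 leaves and 343 ± 70.2 in Wf9 (SD, n = 3 each; adjusted p = 0.389). Its B73 replicates were 267, 193 and 643, and the last averaged arrays at 929 and 357, so that the B73 mean lay above the Mo17 mean only with that replicate. nfd106 was at background on all arrays, with line means of 1.58 to 2.42.

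Replicate 3 was the highest of its line in B73, Mo17 and Wf9 alike for 8 of the 41 members (19.5%), 5 of them assembly factor probe sets: those of nfa103, nfc101 and nfc103, and both of nfa104. The same held for 948 of 8346 tested probe sets (11.4%), and for 881 of the 5565 with a mean signal above background (15.8%). Without the first array of the third B73 RNA it held for 9 members (22%), of which 5 were assembly factors, and for 1028 tested probe sets (12.3%). The count fell once W23 was included. Over all 4 lines replicate 3 was the highest for 1 of 41 members (2.44%) and 0 of 13 assembly factors, against 245 tested probe sets (2.94%). For all 8 members, W23 replicate 3 still lay above W23 replicate 1. For the 5 assembly factor probe sets it lay below W23 replicate 2, as in nfa103, at 29.3, 68.7 and 56.1. A count of highest replicates does not show such a rise in replicates 2 and 3 together. The count over B73, Mo17 and Wf9 was chosen with earlier results of these data known. For replicate 1 the counts over those 3 lines were 4 members and 664 tested probe sets, and for replicate 2 they were 2 members and 592. The sources do not say whether replicates of one number were grown together, and the part of growth occasion in these levels was not tested.

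**Figure D4:**
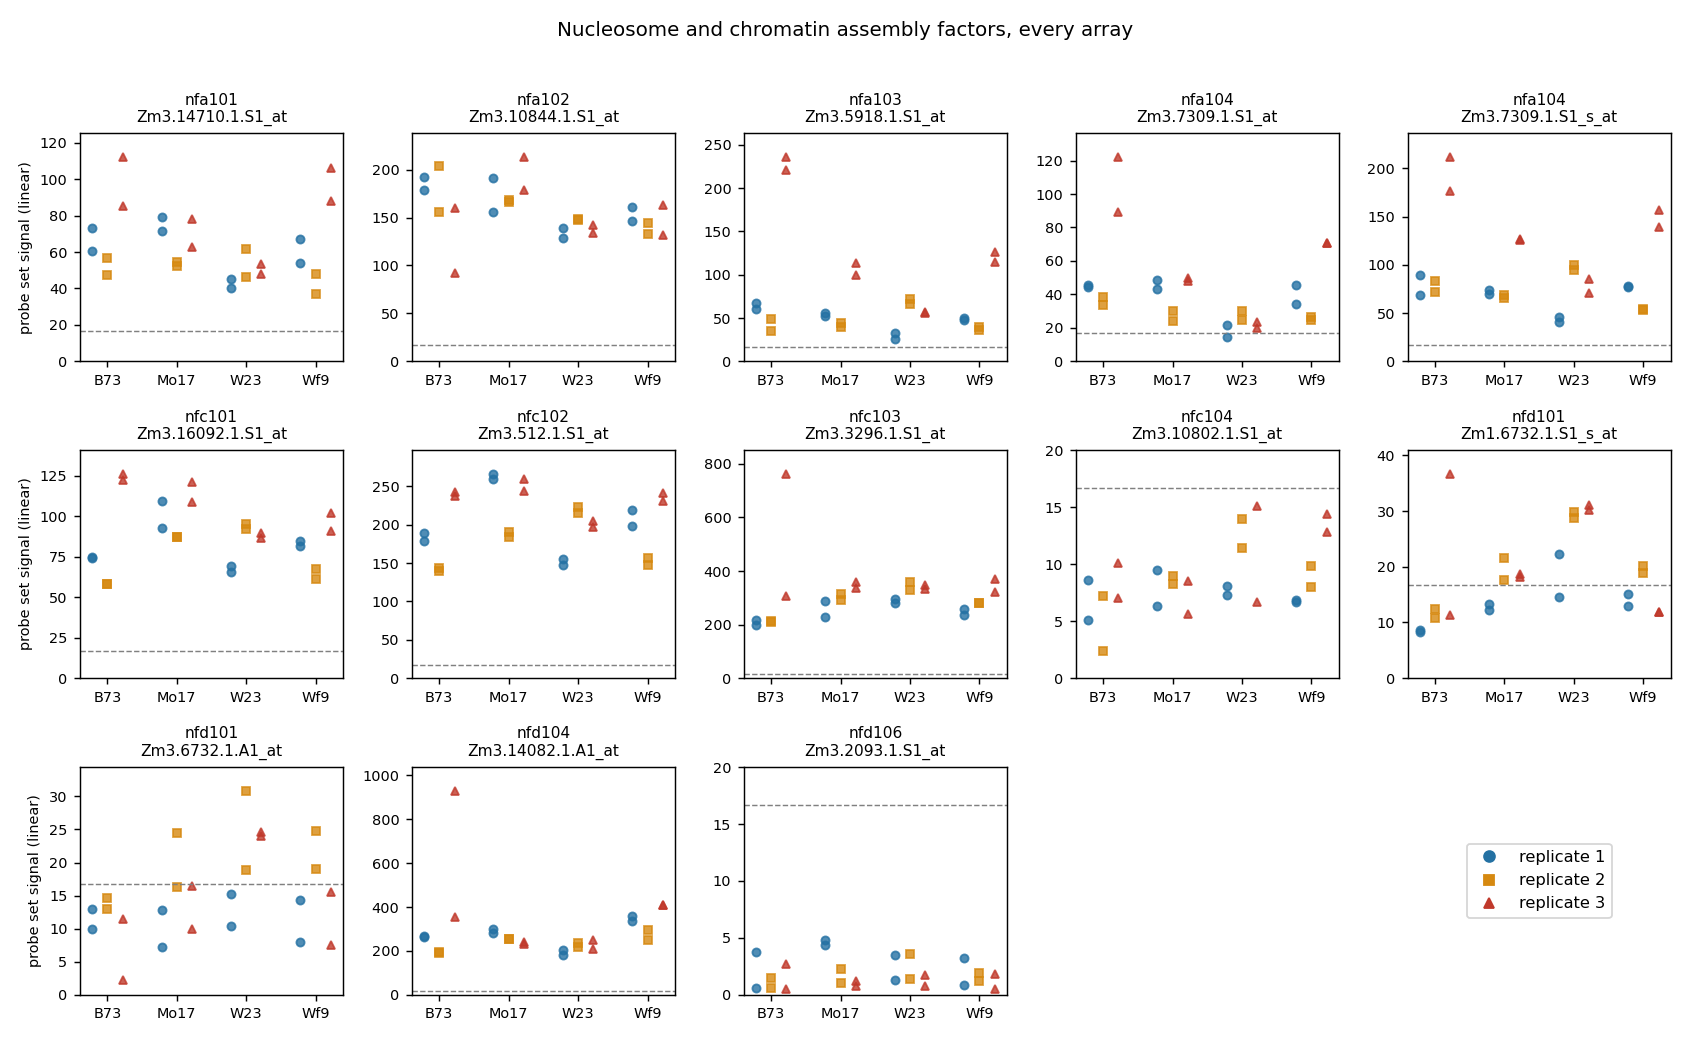
Signal on a linear scale for the 13 assembly factor probe sets, by line, with 1 point per array; colour and shape mark the biological replicate and the dashed line is the background signal of 16.7. For nfa103 and nfa104 replicate 3 has the highest mean in B73, Mo17 and Wf9 but not in W23, and for nfc103 and nfd104 1 array of the third B73 RNA stands far above its partner.

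Between pairs of lines, the share of members that passed was at or below that of all tested probe sets. It was close to that share for B73 and Wf9 and for Mo17 and Wf9, and the difference in share was not tested. B73 and Mo17 differed in 2 of 41 members (4.88%), both higher in B73, against 14.7% of all tested probe sets. B73 and W23 differed in 4 members (9.76%), all lower in B73, against 16%. These were dmt106 and the probe sets of the single gene hon102. B73 and Wf9 differed in 5 members (12.2%), 3 higher and 2 lower in B73, against 14.5%. Mo17 and W23 differed in 3 members (7.32%), all lower in Mo17 and all probe sets of the single gene hon102, against 13.9%. Mo17 and Wf9 differed in 6 members (14.6%), 2 higher and 4 lower in Mo17, against 16.3%. W23 and Wf9 differed in 4 members (9.76%), 3 higher and 1 lower in W23, against 15.3%. Those higher in W23 were dmt106 and both probe sets of hac106. Over all tested probe sets the calls split 639 higher and 584 lower for B73 minus Mo17, and 703 and 632 for B73 minus W23. The splits were 634 and 573 for B73 minus Wf9, and 593 and 566 for Mo17 minus W23. They were 683 and 678 for Mo17 minus Wf9, and 621 and 652 for W23 minus Wf9. The member counts take probe sets of the same gene separately, and the 6 contrasts share lines and are not independent.

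These pair counts are small and moved when 1 replicate was left out. B73 minus Mo17 fell to 1 member without B73 replicate 1, B73 replicate 2, Mo17 replicate 1, W23 replicate 3 or Wf9 replicate 1. B73 minus Wf9 fell to 2 members without B73 replicate 1, and to 3 without B73 replicate 2 or any single Wf9 replicate. Without B73 replicate 3, Mo17 minus W23 had 5 members and W23 minus Wf9 had 7. Among the 10 members that passed the F-test, W23 was the highest line for 6 (3 of hon102, 2 of hac106, and dmt106), B73 for 2 and Wf9 for 2, and Mo17 for 0. Mo17 was the lowest line for 5, B73 for 3, Wf9 for 2 and W23 for 0. These orders count several probe sets of the same gene and were not tested. No matching split over all probe sets past the F-test is given, so no tendency of a line is read from them.

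**Figure D5:**
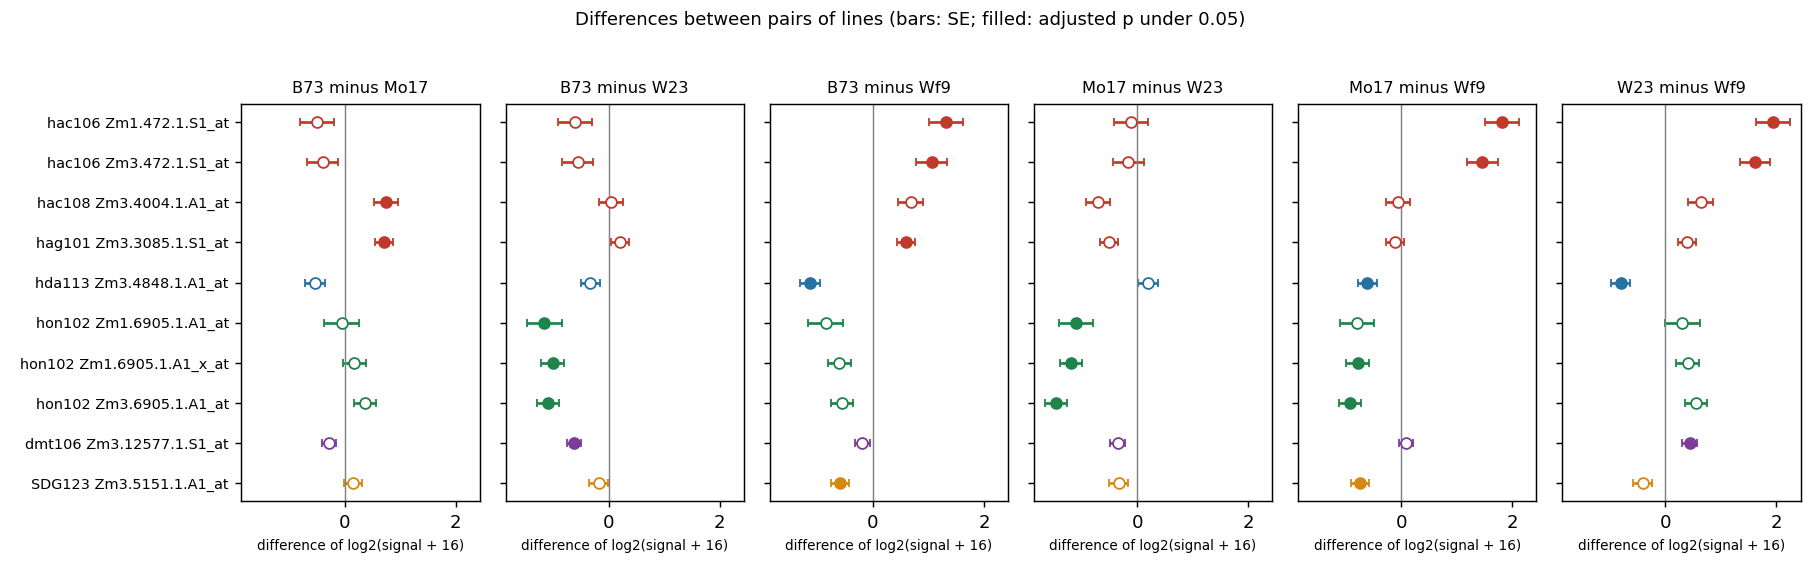
Differences of log2(signal + 16) for the 6 pairs of lines, each as first line minus second line, for the 10 probe sets that passed the F-test; bars are standard errors and filled points have an adjusted p under 0.05. The hac106 points are filled in all 3 contrasts with Wf9, and the hon102 points in both contrasts of B73 and Mo17 with W23.

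Other chromatin genes, taken from a list of names outside the member prefixes, comprised 19 probe sets. Of these 19, 4 passed the F-test, against 30.5% of all tested probe sets. 1 was at background on all arrays, and the median range of line means was 0.56 on the log2(signal + 16) scale. The 4 were the methyl-CpG-binding domain genes mbd101 (adjusted p = 0.0176), mbd106 (adjusted p = 0.00187) and mbd111 (adjusted p = 3.85e-08), and the histone gene his1 (adjusted p = 7.4e-06). mbd111 averaged 249 in B73, 265 in Mo17, 1.95 in W23 leaves and 294 in Wf9. his1 read 559, 784 and 250 in B73, 520, 500 and 372 in Mo17, 8.80, 11.5 and 10.7 in W23, and 329, 158 and 196 in Wf9. W23 was at background for his1 and mbd111, whereas it had the highest line mean of hon102. The gene table lists his1a as another name of hon102, and the genes are separate entries there.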

How the data were processed

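The authors deposited 1 table of probe set signals, intensities on a linear scale, for 24 arrays. MAS5 and GCOS, Affymetrix programs that reduce each probe set to 1 signal per array, are named per the submitters' processing notes. For the program version and scaling target, nothing is stated there or in the labels. On every array the 2% trimmed mean lay at 250.15 to 250.24 once exact zeros were dropped, so scaling had been applied before deposit.

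Arrays were rescaled to 1 trimmed mean over 2% trimmed values, 213 exact zeros were treated as missing and 129 control probe sets were left out. Differences were taken on log2(signal + 16), which understates changes of dim probe sets. The log2 values of the 2 technical arrays were averaged, and 12 biological replicates, 3 per line, were fitted with limma 3.58.1 in R 4.3.3 (lmFit, eBayes with trend; line as the only term). Benjamini-Hochberg adjustment ran over all 8346 tested probe sets, with a threshold of 0.05. Each contrast is the first line minus the second. Folds are ratios of geometric means with the background signal as a floor. That signal, 16.7, was the 99th percentile of 44 control probe sets. Means and SDs are of linear signals. Precision is limited by the 3 biological replicates per line, and counts or depths do not exist here. The fit was tested on simulated data.

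Genes were named from the platform annotation and a maize gene table. No build is named for the array, so no coordinates are given. Probe sets of a gene are reported separately. Values in every replicate are given for members past the F-test and for the member of smallest p per prefix. The members and the lists of other genes were chosen with earlier results of these data known.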

Additional observations from a re-analysis of the deposited data

How the results depend on the processing

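Of the 10 members past the F-test, 6 passed under all 23 alternatives of it: both hac106 probe sets, hag101, hda113, and hon102 on Zm1.6905.1.A1_x_at and Zm3.6905.1.A1_at. The other 4 were each lost only in settings named in the report. The F-test count was 8 to 11 when 1 replicate at a time was left out, and the pair counts were 1 to 2 for B73 minus Mo17, 3 to 6 for B73 minus W23, 2 to 6 for B73 minus Wf9, 2 to 5 for Mo17 minus W23, 4 to 8 for Mo17 minus Wf9 and 3 to 7 for W23 minus Wf9. The count of members apart in 1 line was 1 to 2. With a pseudocount of 64 it was 0, with both hac106 probe sets still past limma's F-test and 10 members called. B73 minus Mo17 gave 1 member with quantile normalization and 1 with W23 RNAs 2 and 3 averaged. The filter on dim probe sets left 33 members among 5853 probe sets, and its F-test called 42.1% of those 5853. It gave 4 members for B73 minus Mo17 and 5 for Mo17 minus W23. Without the mean-variance trend these counts were 5 and 6, in a fit whose F-test called 30.8% of all tested probe sets. With the RNA as a random block, B73 minus Wf9 gave 9 and Mo17 minus W23 gave 6. That fit called 38.4% of all tested probe sets in the F-test, against 30.5% in the main fit. Limma fits of each pair alone gave 0 members for B73 minus Mo17 (4 at an unadjusted p under 0.05) and 1 for B73 minus Wf9 (8 unadjusted). No share of all tested probe sets is given for these pair fits, so their counts are not read against it. Array weights, whose estimation did not fully converge, gave 28 members past the F-test beside 5424 (65.0%) of all tested, with 7 for B73 minus Mo17, 13 for B73 minus W23, 19 for B73 minus Wf9, 7 for Mo17 minus W23 and 20 for W23 minus Wf9. The cause of these shifts was not tested. Same-numbered replicates of different lines had correlated deviations in 15 of 18 pairs (over 0.1), at 0.21 to 0.61. The 3 pairs with W23 replicate 2 ran from −0.60 to −0.32, so the number was not taken to pair samples, on the strength of that 1 sample. A fit with the replicate block gave 11 members in the F-test, beside 35.5% of all tested probe sets. Its pair counts were 7 for B73 minus W23, 9 for B73 minus Wf9, 5 for Mo17 minus W23 and 7 for W23 minus Wf9. It also brought hda101 past the threshold (adjusted p = 0.0280). Signal near background limits what can be said of dmt106, DMT105, nfd101 and cha101.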

Other observations

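Probe sets with no gene name in the annotation, but with the cluster number of a member in their own name, were looked up after the members' values had been seen. Zm1.6905.2.A1_a_at, of the cluster that holds hon102, averaged 128 ± 29.6 in B73, 138 ± 13 in Mo17, 501 ± 90.5 in W23 leaves and 227 ± 59.6 in Wf9 (SD, n = 3 each). All W23 replicates (422 to 600) lay above the Wf9 replicates (180 to 294), and these above the B73 replicates (94.5 to 150.0) and the Mo17 replicates (126 to 152). On the log2(signal + 16) scale, B73 minus W23 was −1.85 ± 0.22 (adjusted p = 0.000105), Mo17 minus W23 was −1.74 ± 0.22 (adjusted p = 0.000144) and W23 minus Wf9 was 1.10 ± 0.22 (adjusted p = 0.00411). The last contrast did not pass on any of the hon102 probe sets. Zm1.6905.2.S1_at, of the same cluster, was at or below background in all replicates, with line means of 3.62 in B73, 4.10 in Mo17, 11.9 in W23 leaves and 4.00 in Wf9. Whether these probe sets read hon102 or a related sequence was not tested.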
